A study of Rattus norvegicus with 27 samples.

Results

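The level of 31 genes of cholesterol and fatty acid synthesis was followed in the medial prefrontal cortex (mPFC) of 27 rats. The genes were chosen by their rat symbols, and each of the 31 listed symbols matched 1 row of the 36865 rows in the count table. Of these, 7 encode enzymes from acetyl-CoA to farnesyl diphosphate (mevalonate arm), 11 the enzymes from squalene to cholesterol (sterol arm), 3 are regulators, 9 make, desaturate or elongate fatty acids (fatty acid arm), and 1, Lpin1, acts in glycerolipid synthesis. All rats were males of the Wistar strain, an outbred stock, and form 1 group of 27 without a control group, with 1 library of polyA RNA per rat. The paper describes adult rats that had been tested repeatedly for anxiety-related behaviour (light-dark box, open field, elevated plus-maze) and were sampled at rest 2 weeks after the last test, while the sample labels give learned helplessness as the treatment and also list acoustic startle and fear conditioning. The 27 were every second animal, by rank of an anxiety score not used here, of 2 pooled cohorts, and which cohort a library came from is not given in the sources used here. The tissue was cut out along the forceps minor, a white matter tract of the corpus callosum, so the amount of white matter taken could differ between rats. The question asked here was how the level of each gene varied between rats, which genes varied together, and whether they varied with the white matter content of the sample.

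Cholesterol is made from acetyl-CoA by way of mevalonate, squalene and lanosterol. Fatty acids are built from the same acetyl-CoA, which ATP citrate lyase releases in the cytosol, by acetyl-CoA carboxylase and fatty acid synthase, and are then desaturated and elongated. The transcription factors SREBP-1 and SREBP-2, encoded by Srebf1 and Srebf2, drive both pathways, and INSIG-1 holds them in the endoplasmic reticulum when sterols are plentiful. The brain makes its own cholesterol, since lipoproteins of the blood do not cross the blood-brain barrier. Myelin holds most of it, and oligodendrocytes and astrocytes are the main cells that make it in the adult brain.

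Promoter sequences are shown for 3 genes whose level rose with that of Hmgcs1 (Idi1, Fdps and Msmo1) and for 2 genes whose level rose with the white matter score (Cyp51, which rose with both, and Scd2). Each is the stretch of 250 bases before the transcript start in the RefSeq table of the rat assembly GRCr8, read 5′ to 3′ in the direction of the gene. Capitals mark CCAAT, or its reverse complement ATTGG, the box bound by nuclear factor Y, which is known to act beside SREBP on many sterol genes.
Idi1 promoter, chr17:66547525-66547774 (minus strand): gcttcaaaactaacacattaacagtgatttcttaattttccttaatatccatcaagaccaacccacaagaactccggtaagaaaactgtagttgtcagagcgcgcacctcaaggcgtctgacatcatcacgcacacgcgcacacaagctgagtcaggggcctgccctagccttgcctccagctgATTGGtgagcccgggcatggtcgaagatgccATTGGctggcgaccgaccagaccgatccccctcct
Fdps promoter, chr2:176804817-176805066 (minus strand): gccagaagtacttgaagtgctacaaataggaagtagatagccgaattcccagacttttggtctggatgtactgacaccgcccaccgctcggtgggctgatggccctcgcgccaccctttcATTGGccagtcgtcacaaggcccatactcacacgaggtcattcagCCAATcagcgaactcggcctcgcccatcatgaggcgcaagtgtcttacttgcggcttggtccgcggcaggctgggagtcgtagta
Msmo1 promoter, chr16:29746863-29747112 (plus strand): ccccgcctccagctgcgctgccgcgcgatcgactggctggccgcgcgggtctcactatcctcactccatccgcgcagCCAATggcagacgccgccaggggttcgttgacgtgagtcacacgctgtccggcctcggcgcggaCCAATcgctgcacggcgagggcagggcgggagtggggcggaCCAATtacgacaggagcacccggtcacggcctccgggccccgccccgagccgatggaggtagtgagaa
Cyp51 promoter, chr4:30991443-30991692 (plus strand): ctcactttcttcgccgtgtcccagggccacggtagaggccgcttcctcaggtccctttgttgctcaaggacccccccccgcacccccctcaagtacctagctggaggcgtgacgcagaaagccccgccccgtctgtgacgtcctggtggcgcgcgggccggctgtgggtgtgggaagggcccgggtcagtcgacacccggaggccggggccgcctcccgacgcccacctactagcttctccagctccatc
Scd2 promoter, chr1:253118127-253118376 (plus strand): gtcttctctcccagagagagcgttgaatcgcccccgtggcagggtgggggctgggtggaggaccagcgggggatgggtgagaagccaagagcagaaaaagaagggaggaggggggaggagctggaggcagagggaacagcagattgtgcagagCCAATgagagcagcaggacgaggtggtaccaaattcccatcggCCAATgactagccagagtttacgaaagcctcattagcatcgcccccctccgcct

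The table held 25 of the 31 genes, and Pmvk, Fdft1, Sqle, Acaca, Fasn and Elovl6 were not matched. A CCAAT on either strand stood in the 250 bases of 20 of the 25 genes (80.0%), and in 11385 of all 33469 promoters in the table (34%). Msmo1 held 3 such boxes, Idi1, Fdps and Scd2 held 2 each, and Cyp51 held 0. The letters TCACNCCAC, one spelling of the sterol regulatory element, were searched on both strands, can share no more than 1 end letter with CCAAT, and stood in 0 of the 25 windows and in 0.974% of all promoters. In 12 of the 25 windows the bases overlapped the RefSeq span of the same gene, and only windows outside that span are shown. A match is a description of the letters and not of binding.

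Reads counted on genes ranged from 4907255 to 12771309 per library, so the smallest share that 3 counts can show was 6.11e-05% at most, which covers counting error alone. Totals fell into ranges that follow the numbers of the libraries. The 16 numbered up to 31 held 4907255 to 8568317 counts, and the 11 numbered from 32 held 9404220 to 12771309. What this number stands for is not given in the sources used here, and the 2 sets are called depth blocks. Levels are normalised read counts (counts divided by DESeq2 size factors), and SDs are those of log2(normalised count + 1), a scale that understates the spread of low genes. Library 3 stood apart from the other 26. It lay at 3.85 SD on the first principal component of all tested genes (22.0% of the variance), where the next library lay at 1.76. It also had the highest white matter score (2.26) and a neuron score of -1.79. Library 3 was the highest of all 27 in 8 of the 31 genes (Pmvk, Mvd, Fdps, Cyp51, Tm7sf2, Msmo1, Ebp and Scd) and the lowest in 6 (Acat2, Lss, Sc5d, Acaca, Elovl5 and Lpin1). Results that rest on it are given with and without it. In bulk tissue, fewer cells of a type and less RNA per cell cannot be told apart.

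The lipid genes as a whole varied between rats about as much as other genes. The median SD of the 31 genes was 0.16 (log2), against 0.18 for the 11292 genes that passed the filter on low counts, and without library 3 both values were close to this (0.16 and 0.17). By arm, the median SD was 0.22 in the fatty acid arm (0.19 without library 3). It was 0.16 in the mevalonate arm and 0.16 in the sterol arm (0.15 and 0.15 without library 3). All 31 passed that filter. Their variance exceeded that of counting in 29 of 31 genes (93.5%), which is near the 89.8% found for the 11730 genes whose mean count reached 10 (chi-square test of dispersion, adjusted p under 0.05 by Benjamini-Hochberg). The exceptions were Mvd and Ebp, for which the adjusted p was 0.243 and 0.068, and for which counting noise gave 82.8% and 66.5% of the variance. The ratio of the highest to the lowest rat ran from 1.25 for Acly to 3.71 for Acaca, with a median of 1.62.

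**Figure D1:**
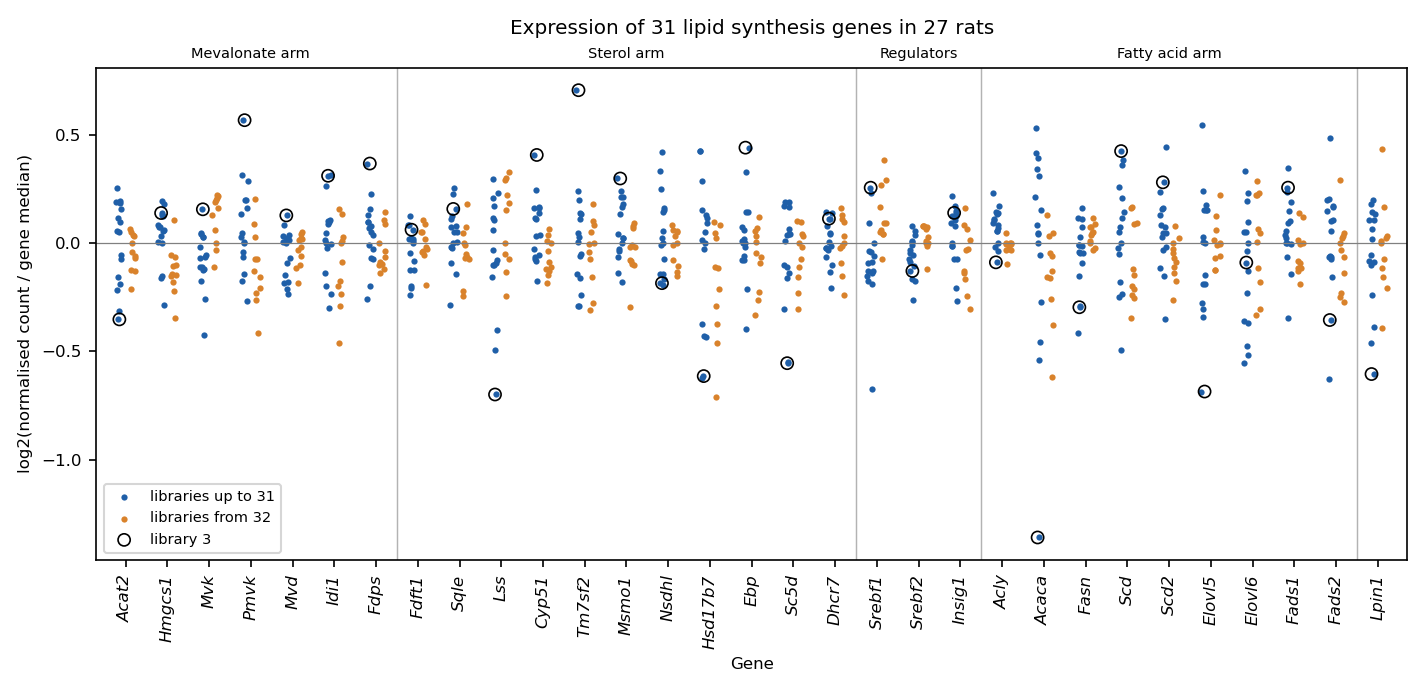
Normalised count of each of the 31 genes in each of the 27 rats, as log2 of the ratio to the gene's median over rats (y axis), for genes in pathway order (x axis). Blue points are the 16 libraries numbered up to 31, orange points the 11 numbered from 32, and the ring library 3, which lies at an end of the range in 14 genes and is lowest of all in Acaca.

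In the mevalonate arm, Hmgcs1, the synthase that makes HMG-CoA, had 3460 normalised counts in its lowest rat, a median of 4398 and 5025 in its highest. Fdps, the farnesyl diphosphate synthase, ranged from 894 over a median of 1071 to 1381. For Idi1, the isopentenyl diphosphate isomerase, the lowest value was 311, the median 428 and the highest 531. The highest rat of Fdps was library 3, and the lowest rat of Hmgcs1 was library 51, from the deeper block. Pmvk, the phosphomevalonate kinase, had the largest SD in the arm (0.21), with 461 to 911 normalised counts and a median of 615. Its highest value came from library 3, and without that library its SD was 0.19. Mvk, the mevalonate kinase that precedes it, ranged from 188 over 253 to 294. Acat2, which condenses acetyl-CoA to acetoacetyl-CoA, and Mvd, which decarboxylates mevalonate diphosphate, had SDs of 0.16 and 0.10.

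In the sterol arm, Cyp51, the lanosterol demethylase, ranged from 1610 over a median of 1828 to 2422 normalised counts. Msmo1, the methylsterol monooxygenase of the next steps, had 1064, 1308 and 1607 as its lowest, median and highest values. Sqle, the squalene epoxidase, had 607, 741 and 882. Library 3 was the highest rat for Cyp51 and Msmo1, and library 51 the lowest for both. Lss, which closes the sterol rings as lanosterol synthase, ran from 168 over 273 to 342. Its lowest value was that of library 3, and its SD fell from 0.25 to 0.21 without it. Nsdhl, a sterol dehydrogenase of the demethylation steps, ranged from 246 over 282 to 377. Sc5d, the sterol desaturase, ranged from 410 over 602 to 685. Fdft1, the squalene synthase, and Dhcr7, which makes cholesterol in the last step of one branch, were among the steadiest genes, with SDs of 0.10 and 0.11. Tm7sf2, a sterol reductase, ranged from 122 over 151 to 246, with library 3 far above the rest, and its SD was 0.16 without that library against 0.21 with it. Hsd17b7, a keto-sterol reductase, was covered by 17 to 58 reads per library, Ebp, the sterol isomerase, by 56 to 140 and Tm7sf2 by 78 to 255, the fewest in the arm, and counting noise gave 61.9%, 66.5% and 25.5% of their variance, in the same order.

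Among the regulators, Srebf2, the main activator of cholesterol synthesis, had a narrow range from 2708 over a median of 3255 to 3440 normalised counts (SD 0.09). Srebf1, better known for fatty acid synthesis, ranged from 420 over 672 to 876 (SD 0.21). Insig1 ranged from 628 over 775 to 900 (SD 0.15). The lowest rat of Srebf1 was library 18, the one with the lowest white matter score.

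In the fatty acid arm, Acly, the ATP citrate lyase, was the steadiest of all 31 genes, with 2251 normalised counts in its lowest rat, a median of 2405 and 2821 in its highest (SD 0.08). Acaca, the acetyl-CoA carboxylase that commits acetyl-CoA to fatty acids, varied the most, from 197 over 506 to 732 (SD 0.39). Its lowest value was that of library 3, the next lowest was 329, and without library 3 its SD was 0.29. Fasn, the fatty acid synthase, ranged from 2222 over 2966 to 3315 (SD 0.13). Scd2, the stearoyl-CoA desaturase that is abundant in brain, ranged from 18063 over 23024 to 31331, and its paralog Scd from 192 over 270 to 362. Both were lowest in library 18. The delta-5 desaturase gene Fads1 had 1401, 1781 and 2264 normalised counts as lowest, median and highest, and Fads2, the delta-6 desaturase, had 286, 442 and 619. These were lowest in library 18 and highest in library 5, as was Scd2. The elongase gene Elovl5 ranged from 124 over 199 to 291, lowest in library 3 and highest in library 5. Elovl6, the elongase of saturated fatty acids, had an SD of 0.25 and was covered by 27 to 106 reads. Lpin1, the phosphatidate phosphatase lipin, ranged from 115 over 174 to 236, and library 3 was lowest. Scd with Scd2, and Fads1 with Fads2, are paralogs that lie near each other on chromosome 1 (Scd2 at 253118377 to 253131436 and Scd at 253218968 to 253232101, Fads2 at 216132277 to 216172190 and Fads1 at 216252605 to 216267618, GRCr8). Reads shared by paralogs could have been split between them, so that their separate levels are uncertain.

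The white matter content of each sample was measured by the mean z score of 11 genes of myelin and mature oligodendrocytes, none of which is among the 31. All 11 were detected, and their summed level ranged from 19077 to 66499 normalised counts. Mbp, the myelin basic protein gene, ranged from 8109 over a median of 14383 to 33372. Mog, a gene of the outer myelin surface, ranged from 256 over 453 to 826. Both were highest in library 3. A list of 10 other white matter genes gave a score that followed the first (rho = 0.95, n = 27, a description over the same libraries). The astrocyte score, from 12 genes, summed from 24362 to 37202 normalised counts. Its genes include Aqp4, the water channel of astrocyte endfeet (2196, 3063 and 4576 normalised counts), Gfap, the astrocyte filament gene (2475, 3299 and 5098), and Slc1a3, a glutamate transporter gene (4313, 6071 and 8539), each with the lowest, median and highest rat. The 2 scores were related across rats (Pearson's r = 0.507, p = 0.0065, and Spearman's rho = 0.383, p = 0.049, two-sided permutation test, 1 relation, n = 27). This relation changed with the samples, since r was 0.344 without the 2 rats farthest in white matter score, and rho was 0.741 in the libraries up to 31 and -0.427 in those from 32.

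With the white matter score, 4 of the 31 genes rose and 0 fell (edgeR quasi-likelihood test over all 11292 genes, adjusted p under 0.05). They were the desaturase genes Scd, Scd2 and Fads1, all from the fatty acid arm, and Cyp51 from the sterol arm. This is 12.9% of the 31, where 1.94% of all genes were called, 1.64% upward and 0.301% downward. The median slope was 0.02 (log2 per SD of the score) for the 31 genes and 0.00 for all genes, and 22 of the 31 slopes were above 0. The slope was 0.11 ± 0.02 (SE) for Scd2 (adjusted p = 0.0078), 0.09 ± 0.02 for Cyp51 (0.017), 0.09 ± 0.02 for Fads1 (0.036) and 0.14 ± 0.04 for Scd (0.043), in edgeR's fit. Idi1 had a slope of 0.11 ± 0.03 and did not pass (adjusted p = 0.061), but passed with the depth block in the fit (0.12 ± 0.03, adjusted p = 0.014, edgeR) and in DESeq2 (0.035). Early in the mevalonate arm, Acat2 had a slope of -0.02 ± 0.03 and Hmgcs1 of 0.03 ± 0.03. Early in the fatty acid arm, Acly had a slope of -0.03 ± 0.02, Acaca of -0.04 ± 0.07 and Fasn of 0.01 ± 0.03. The regulators had slopes of 0.10 ± 0.03 (Srebf1, adjusted p = 0.184), -0.02 ± 0.02 (Srebf2) and 0.06 ± 0.03 (Insig1), in the same edgeR fit.

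The calls other than that of Scd2 changed when single rats were left out, and all 4 were lost without 2 rats. Without the 2 rats farthest from the median white matter score, libraries 3 and 18, 0 of the 31 genes passed in edgeR (5 had an unadjusted p under 0.05), and the slopes were 0.09 for Scd2, 0.07 for Cyp51, 0.07 for Fads1 and 0.10 for Scd. When each rat was left out in turn, 1 to 5 genes passed. The count was 1 without library 3, 5 or 17 and 2 without library 9, 18, 20, 22, 24 or 32. Scd2 passed at each of the 27 omissions (adjusted p 0.00076 to 0.045). Cyp51 failed without library 3 (adjusted p = 0.281), 5 (0.0587) or 17 (0.0561). Fads1 failed at 11 omissions, those of libraries 3, 5, 9, 13, 17, 18, 20, 22, 24, 32 and 51, with adjusted p between 0.0507 and 0.145. Scd failed at 17, those of libraries 3, 5, 6, 9, 13, 17, 18, 19, 20, 22, 24, 28, 32, 34, 35, 47 and 52, with adjusted p between 0.0508 and 0.221. The slopes stayed above 0 for the 4 genes at every omission, at 0.068 or more. Within the libraries up to 31, where the score ran from -1.80 to 2.26, 3 of the 31 genes passed (1.9% of all genes), and within those from 32, where it ran from -1.42 to 0.65, 0 did (3 at an unadjusted p under 0.05), where 0.248% of all genes passed. The difference in slope between the blocks was tested over all genes, and 0.0% of 11292 genes were called, upward or downward, with 331 genes and 0 of the 31 at an unadjusted p under 0.05 in edgeR, and 0 genes called by DESeq2 (391 unadjusted).

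**Figure D2:**
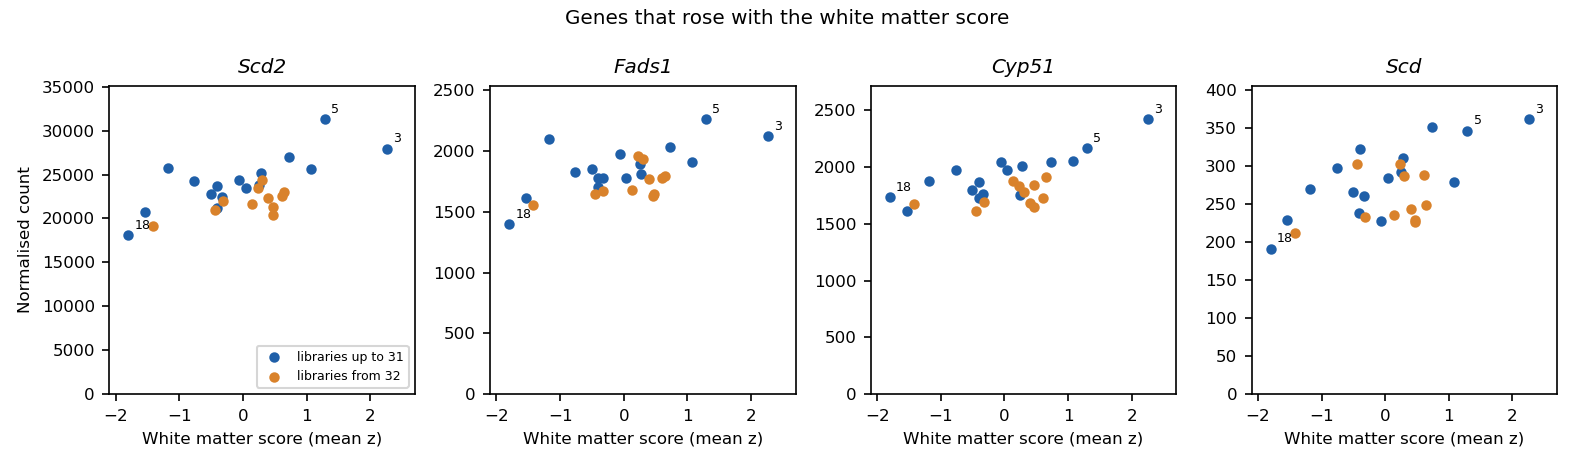
Normalised count (y axes from 0) of Scd2, Fads1, Cyp51 and Scd against the white matter score (x axes, mean z score of 11 genes) in 27 rats, with blue for libraries up to 31 and orange for those from 32. Libraries 3, 5 and 18 are numbered, and libraries 3 and 18 have the highest and the lowest score.

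The astrocyte score was followed by 4 of the 31 genes as well (12.9%, where 1.67% of all genes were called, 1.53% upward and 0.142% downward). Scd2 had a slope of 0.14 ± 0.02 (SE, adjusted p = 6.0e-05), Fads1 of 0.12 ± 0.02 (0.00038), Cyp51 of 0.09 ± 0.02 (0.017) and Fads2 of 0.13 ± 0.03 (0.030) in edgeR's fit, and 0 genes fell. Scd had 0.13 ± 0.04 and did not pass (0.068), but did in DESeq2 (adjusted p = 0.035). Without libraries 5 and 35, the 2 rats farthest in this score, Fads2 was lost (slope 0.09, adjusted p = 0.284, edgeR). With the depth block in the fit, Srebf1 passed too (0.13 ± 0.02, adjusted p = 0.0020), against 0.10 ± 0.03 and 0.169 without it, in edgeR. Within the libraries up to 31, Srebf1 passed and Fads2 did not (adjusted p = 0.020 and 0.322, edgeR). Without library 3 the count was 4, where 1.54% of all genes were called. Within the libraries from 32 it was 0 (5 at an unadjusted p under 0.05, edgeR), where 0.0% of all genes were called. The rho of Scd2 was 0.50 with the white matter score, 0.80 with the astrocyte score and 0.62 with the score of 8 microglia genes, and the last 2 scores rose together (rho = 0.76), as a description over 27 rats. The rho of Scd2 with the astrocyte score was 0.96 in the libraries up to 31 and 0.34 in those from 32, where its slope was 0.05 ± 0.03 and that of Cyp51 0.02 ± 0.03. When both scores entered one fit, 0 of the 31 genes passed for white matter (7 at an unadjusted p under 0.05), where 1.08% of all genes did. In that fit Scd2 and Fads1 passed for the astrocyte score, with slopes of 0.11 ± 0.02 and 0.10 ± 0.02 (adjusted p = 0.0063 and 0.021, edgeR), where 0.593% of all genes passed. The score of 6 genes of oligodendrocyte precursors rose with both the white matter score (rho = 0.65) and the astrocyte score (0.53), and its rho was 0.49 with Scd2, 0.47 with Fads1 and 0.36 with Cyp51. Its highest rho among the 31 genes was 0.63 with Elovl5, followed by 0.54 with Fasn. The part of microglia and of precursors in these levels was not tested.

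**Figure D3:**
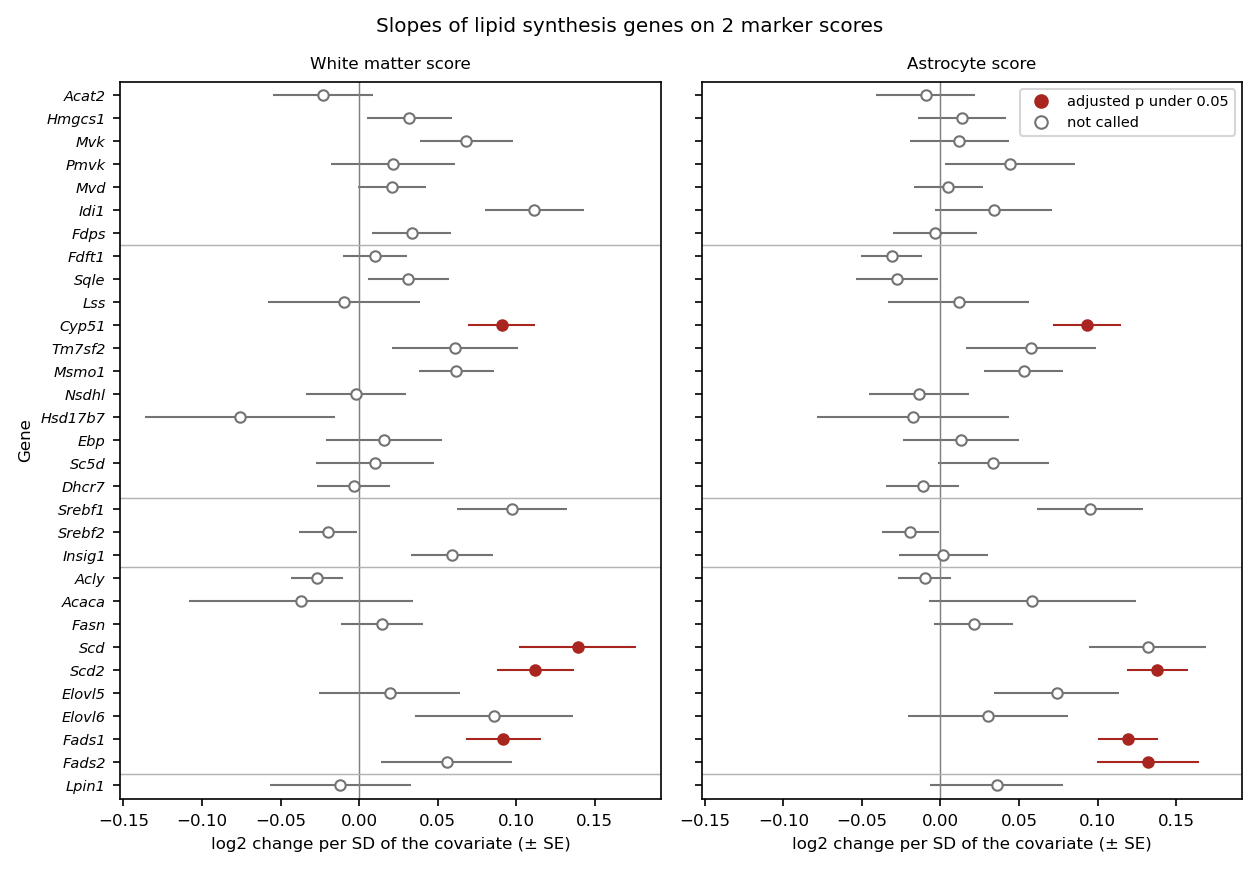
Slope of each of the 31 genes (log2 change per SD of the score, ± SE, x axes) on the white matter score (left) and on the astrocyte score (right), from edgeR over 27 rats. Filled red points are genes with an adjusted p under 0.05, 4 in each panel, and Scd2, Fads1 and Cyp51 are filled in both.

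Other lipid genes were read from the same fit. Of 30 genes of fatty acid and complex lipid metabolism, 4 rose and 1 fell with the white matter score, where 1.64% of all genes rose and 0.301% fell. Fa2h, the hydroxylase of myelin fatty acids, rose by 0.39 ± 0.03 (adjusted p = 2.7e-10), from 107 normalised counts in the lowest rat over a median of 177 to 335. Ugt8, which makes galactosylceramide, rose by 0.36 ± 0.03 (adjusted p = 2.8e-09), and Gal3st1, which sulfates it, by 0.29 ± 0.06 (0.0022), in edgeR's fit. These are enzymes of myelin lipids. Ugt8 and Fa2h are also in the list of other white matter genes, whose score followed the white matter score, so their rise adds no separate result. Lpin2, a paralog of Lpin1, fell by 0.12 ± 0.02 (adjusted p = 0.0022, edgeR). Of 26 genes of sterol uptake, transport and control, 24 could be tested, 2 rose and 0 fell. They were Npc2 and Npc1, whose products carry cholesterol out of lysosomes, with slopes of 0.11 ± 0.03 (adjusted p = 0.021) and 0.10 ± 0.03 (0.029) in edgeR.

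Among themselves, the 31 genes were only weakly related as a whole. Over their 465 pairs the median Spearman correlation across rats was 0.16, and 51 pairs (10.97%) had a rho of at least 0.5. Over all pairs of the 11292 tested genes the median was -0.01 and the share 4.72%. Without library 3 the share was 13.3% for the 31 genes and 4.48% for all. The fatty acid arm was the more tightly related, with a median of 0.36 over 36 pairs and 8 pairs of at least 0.5. The mevalonate and sterol arms together had 0.18 over 153 pairs, and pairs between these and the fatty acid arm had 0.12 over 162 pairs. All these points share the same 27 libraries and their depth, so the correlations are a description.

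Sets of genes are described here from the map of correlations, chosen after its values were seen. In the first, Hmgcs1 went with Sqle (rho = 0.79), Msmo1 (0.77), Fdps (0.74) and Insig1 (0.74), and Fdps with Sqle (0.79). These are enzymes spread along the sterol pathway together with the sterol-regulated brake on it. The values within the depth blocks were close for Hmgcs1 and Sqle, at 0.70 in the libraries up to 31 and 0.73 in those from 32. In the second set, Scd2 and Fads1 had the highest rho of all pairs (0.95, and 0.93 and 0.98 within the blocks). Cyp51, an enzyme of the sterol arm, went with both at 0.83 and 0.76, and after the white matter score was regressed out these 3 values were 0.88, 0.62 and 0.54. In the third set, Acaca went with Fads2 (0.75) and Lpin1 (0.71), and Fads2 with Sc5d (0.69) and Lpin1 (0.67). The values of Acaca with Fads2 were 0.78 and 0.38 within the blocks, and the pair was at 0.72 without library 3.

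A few pairs ran in opposite directions. Srebf1 and Acly had a rho of -0.71, but the values within the blocks were -0.42 and -0.41. Pmvk and Fasn had -0.62, with -0.55 and -0.78 within the blocks. Srebf1 was also opposed to Hmgcs1 (-0.51, and -0.10 and -0.54 within the blocks). In these 3 pairs, 1 gene rose in the rats in which the other fell, most steadily across the blocks for Pmvk and Fasn.

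**Figure D4:**
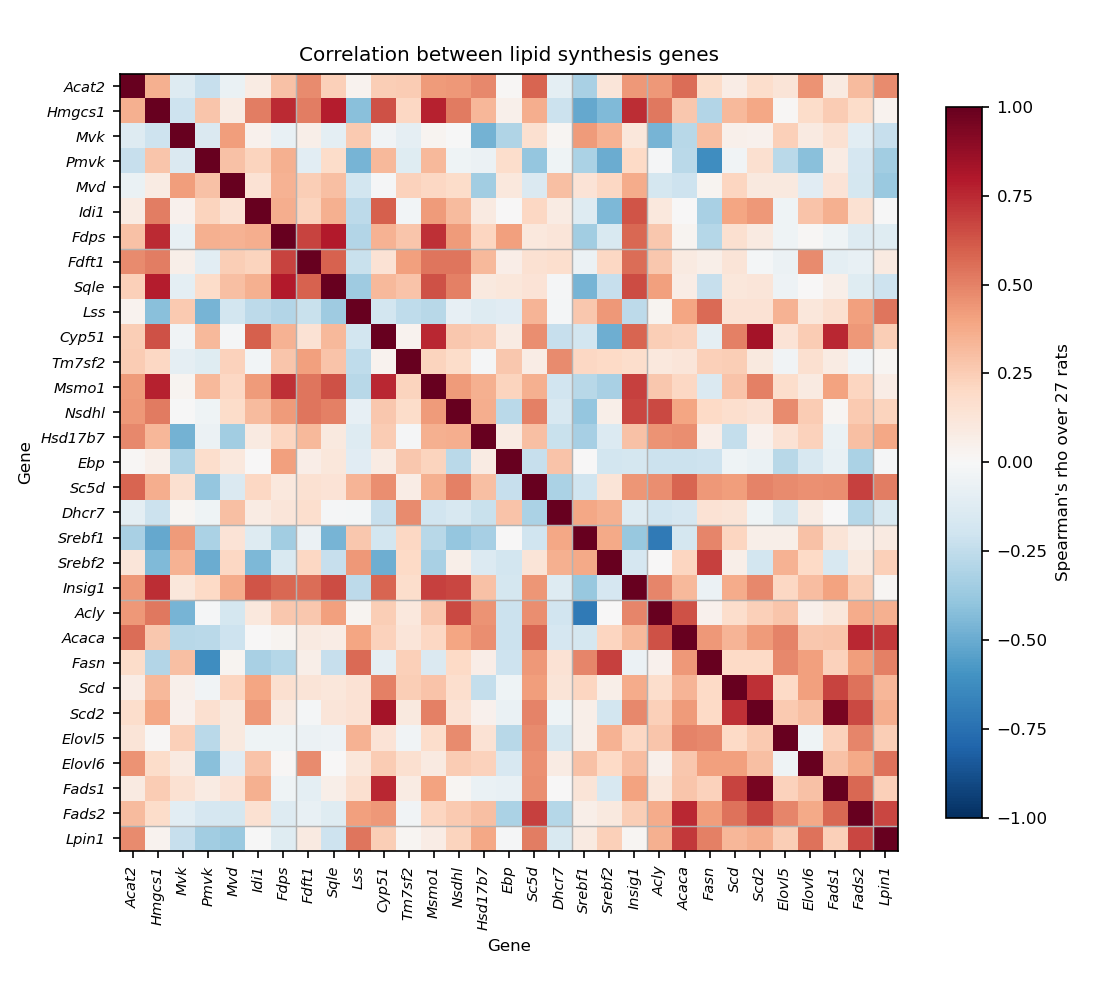
Spearman's rho over 27 rats for each pair of the 31 genes, which stand in pathway order on both axes, with red for positive and blue for negative values and grey lines between arms. The darkest red square off the diagonal is Scd2 with Fads1 (0.95) and the darkest blue is Srebf1 with Acly (-0.71).

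For 8 pairs of a regulator and an enzyme, of successive enzymes or of paralogs, the relation was tested with 100000 two-sided permutations and adjusted over the 8. In 7 of the 8 pairs the adjusted p of rho was under 0.05. Scd and Scd2 had r = 0.815 and rho = 0.728 (permutation p = 1.0e-05, the smallest they can give, and 5.0e-05; adjusted 8.0e-05 and 2.0e-04), and Hmgcs1 and Insig1 had r = 0.735 and rho = 0.736 (6.0e-05 and 3.0e-05; adjusted 2.4e-04 and 2.0e-04). Without the 2 rats farthest in the first gene, r was 0.742 and 0.616 for these 2 pairs. Fads1 and Fads2 had r = 0.656 and rho = 0.574 (permutation p = 0.00020 and 0.0023, adjusted 0.00053 and 0.0045). Without the 2 farthest rats, r was 0.381 and no longer passed (adjusted permutation p = 0.081), while rho did (0.464, adjusted permutation p = 0.033). Without library 3, r was 0.835 and rho 0.729 (adjusted permutation p = 4.0e-05 and 0.00037). In the libraries from 32, r was 0.829 (adjusted permutation p = 0.0044). Fdft1 and Sqle had r = 0.574 and rho = 0.591 (permutation p = 0.0016 and 0.0015, adjusted 0.0033 and 0.0039) and r = 0.747 without the 2. Hmgcs1 and Idi1 had r = 0.558 and rho = 0.509 (permutation p = 0.0027 and 0.0074, adjusted 0.0042 and 0.012) and r = 0.501 without the 2. Within the libraries up to 31, rho was 0.321 both for Hmgcs1 with Idi1 and for Fads1 with Fads2 (adjusted permutation p = 0.292 for each), and in those from 32 it was 0.691 and 0.827 (0.041 and 0.011).

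Each transcription factor gene was tested with 1 enzyme gene. Fasn and Srebf1 had r = 0.507 and rho = 0.485 (permutation p = 0.010 and 0.011, adjusted 0.014 and 0.015), with r = 0.439 and rho = 0.559 without the 2 farthest rats (adjusted permutation p = 0.044 and 0.0082), r = 0.689 and rho = 0.608 without library 3 (0.00088 and 0.0024), and rho of 0.303 and 0.591 within the blocks. Hmgcs1 and Srebf2 were opposed, with r = -0.423 and rho = -0.441 (permutation p = 0.028 and 0.022, adjusted 0.032 and 0.025), and rho of -0.138 and -0.455 within the blocks. Without the 2, r was -0.337 and rho -0.366, and neither passed (adjusted permutation p = 0.114 and 0.082). Without library 3, r of this pair did not pass and rho did (0.055 and 0.044). With the white matter score regressed out, r passed and rho did not (0.049 and 0.075). Neither relation passed within either block, and neither passed with the block regressed out (rho = 0.383, adjusted permutation p = 0.064, for Fasn and Srebf1, and rho = -0.221, 0.266, for Hmgcs1 and Srebf2). Fasn and Acly, neighbours in fatty acid synthesis, had r = 0.200 and rho = 0.045 (permutation p = 0.317 and 0.825, adjusted the same) and r = 0.192 without the 2. With the block regressed out, r of this pair was 0.538 and passed (adjusted permutation p = 0.0076), while rho was 0.372 and did not (0.064). In the libraries up to 31, r was 0.563 (adjusted permutation p = 0.037) and rho 0.426 (0.200), and in those from 32, r was 0.259 (0.458) and rho 0.182 (0.595).

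Hmgcs1 was then used as a covariate across all genes, as an early gene of cholesterol synthesis. Of the other 30 genes, 8 rose with it, namely Idi1, Fdps, Sqle, Cyp51, Msmo1, Nsdhl, Insig1 and Acly, and 1 fell, Srebf1. The share called (9 of 30, 30.0%) was near that of all genes (29.4%, with 14.1% upward and 15.3% downward), so the count in itself says nothing about these genes, while the upward share was 26.7%. The slope was 0.11 ± 0.02 (SE, log2 per SD of Hmgcs1) for Msmo1 (adjusted p = 5.3e-05), 0.10 ± 0.02 for Sqle (0.00012), 0.10 ± 0.02 for Insig1 (0.00034) and 0.09 ± 0.02 for Fdps (0.00046), in edgeR's fit. Srebf1 had -0.10 ± 0.03 (adjusted p = 0.028), and its paralog Srebf2 had -0.04 ± 0.02 (0.065). The 8 that rose are 6 enzymes of the sterol pathway, its brake Insig1, and Acly, which supplies acetyl-CoA. From the list of sterol uptake, transport and control, 3 of 24 rose and 5 fell, and from the complex lipid list 6 of 30 rose and 5 fell.

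Much of the genome moved with Hmgcs1. Its level was close to the second principal component of all tested genes (17.2% of the variance, absolute rho = 0.88, n = 27), and it was related to total counts (r = -0.503 and rho = -0.481, permutation p = 0.0080 and 0.012, adjusted over 2 relations 0.016 and 0.021, r = -0.427 without the 2 libraries farthest in total counts), though rho was -0.215 and 0.218 within the depth blocks. With the block in the fit, 6 of the 30 genes rose and 0 fell, where 19.3% of all genes were called. Idi1, Cyp51, Acly and Srebf1 were lost (adjusted p 0.062 to 0.395), Fdft1 was gained (0.010), and Fdps, Sqle, Msmo1, Nsdhl and Insig1 passed in both fits, in edgeR. The slope of Idi1 hardly changed, at 0.10 ± 0.04 with the block and 0.11 ± 0.03 without it. Those of Cyp51, Acly and Srebf1 were 0.06, 0.02 and -0.06 with the block, against 0.08, 0.04 and -0.10 without it.

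Among the libraries up to 31, 4 of the 30 genes passed with Hmgcs1 (Fdps, Sqle, Msmo1 and Fdft1), or 13.3%, where 7.29% of all genes were called. Among those from 32, 0 of the 30 and 0 of all genes passed in edgeR, with 8 and 1793 at an unadjusted p under 0.05. When the first 3 principal components were added, 0 passed as well (10 of the 30 and 468 genes unadjusted, edgeR), in a fit where the second component nearly follows Hmgcs1 itself. The slopes of Idi1, Insig1 and Fdps were then 0.24 ± 0.08, 0.18 ± 0.05 and 0.15 ± 0.05, larger than without the components, that of Sqle was 0.10 ± 0.05, and that of Srebf1 turned from -0.10 to 0.10. Leaving out each rat in turn gave 7 to 10 called genes. Acly failed without library 12, 13, 20, 31, 32, 35 or 54 (adjusted p 0.0511 to 0.0919), and Srebf1 without library 20, 35 or 51 (0.0513 to 0.0767), in edgeR. Idi1, Fdps, Sqle, Cyp51, Msmo1, Nsdhl and Insig1 passed at each of the 27 omissions.

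With Fasn as the covariate, for the fatty acid arm, 8 of the other 30 genes rose and 2 fell (33.3%, where 28.5% of all genes were called, 14.1% upward and 14.4% downward). The share was near that of all genes, so the count in itself says nothing about these genes. Acaca, which supplies Fasn with malonyl-CoA, had the largest slope, 0.23 ± 0.05 (adjusted p = 0.0019). Fads2, Elovl5 and Lpin1 had slopes of 0.14 ± 0.03, 0.14 ± 0.04 and 0.14 ± 0.04 (adjusted p = 0.0039, 0.0071 and 0.0043), in edgeR's fit. Both transcription factor genes rose, Srebf2 by 0.06 ± 0.02 (adjusted p = 0.0026) and Srebf1 by 0.10 ± 0.04 (0.043). From the sterol arm, Sc5d rose by 0.13 ± 0.03 (adjusted p = 0.0015) and Lss by 0.14 ± 0.04 (0.0069), and Ebp had a slope of -0.09 ± 0.03 (0.030). Pmvk fell by 0.15 ± 0.03 (adjusted p = 0.00027, edgeR). Scd2 and Acly did not pass (slopes 0.04 ± 0.03 and 0.01 ± 0.02). Of 24 sterol uptake, transport and control genes 6 rose and 1 fell, and of 30 complex lipid genes 2 rose and 2 fell.

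Library 3 weighed on this fit. Fasn was also related to total counts, in the opposite direction to Hmgcs1 (r = 0.448 and rho = 0.447, permutation p = 0.017 and 0.021, adjusted over the 2 relations 0.017 and 0.021, r = 0.447 without the 2 libraries farthest in total counts, and rho = 0.279 and 0.282 within the blocks). With the depth block in the fit, 8 genes rose and 1 fell, where 26.9% of all genes were called. Srebf1 and Ebp were lost (adjusted p = 0.182 and 0.061) and Scd2 was gained (0.08 ± 0.03, adjusted p = 0.045), in edgeR. The slope of Ebp hardly changed, at -0.09 ± 0.04 with the block and -0.09 ± 0.03 without it. That of Srebf1 was 0.06 ± 0.04, against 0.10 ± 0.04 without the block. Fasn followed the first principal component (absolute rho = 0.73), on which library 3 stood apart, and without that library the called genes fell from 3216 to 1711 in all and from 10 to 8 of the 30. Lss, Elovl5 and Ebp were then lost (adjusted p = 0.061, 0.062 and 0.177) and Fads1 was gained (0.08 ± 0.03, 0.0497), in edgeR. The slope of Srebf1 rose to 0.15 (adjusted p = 0.0039, edgeR) without library 3, over 1.5 times its value with it. Without libraries 3 and 18, the 2 rats farthest in Fasn level, 3 of the 30 genes were called (10.0%), near the 9.31% of all genes. They were Srebf2, Lss and Pmvk, with slopes of 0.08, 0.17 and -0.14 (adjusted p = 0.028, 0.048 and 0.027, edgeR). Within the libraries from 32, 0 of the 30 and 0 of all genes passed in edgeR (2 and 887 unadjusted). The slopes of Acaca (0.40 ± 0.14), Pmvk (-0.38 ± 0.10), Lss, Srebf1, Fads2 and Sc5d were larger there than over all 27 rats. Those of Elovl5 (0.04 ± 0.11), Lpin1, Srebf2 and Ebp were smaller. With the first 3 principal components added, 5 of the 30 passed (Srebf1, Msmo1, Cyp51, Scd2 and Fads1), where 1.32% of all genes were called. Acaca then had a slope of 0.01 ± 0.04 (adjusted p = 0.930), Lpin1 of 0.02 ± 0.05 (0.948) and Lss of -0.01 ± 0.06 (0.987), in edgeR.

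**Figure D5:**
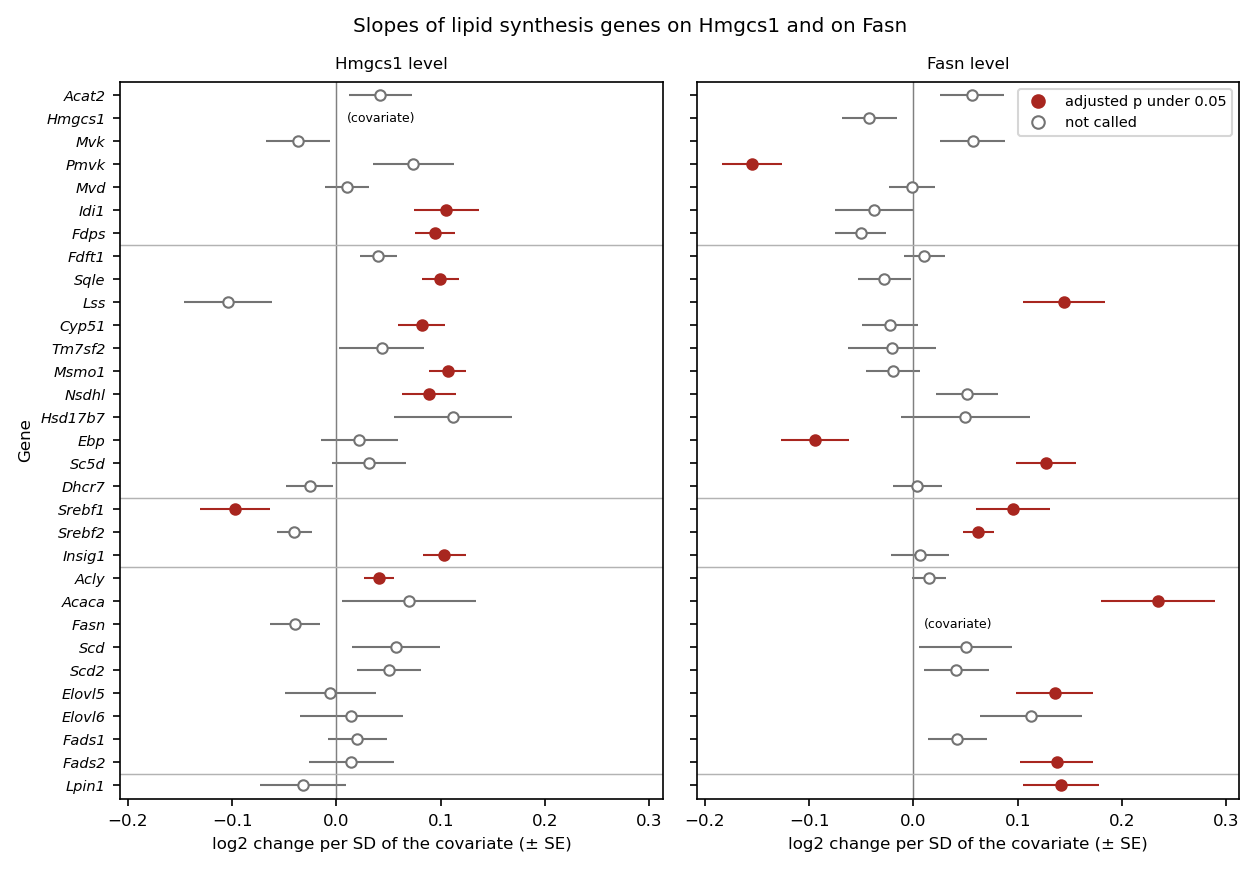
Slope (log2 change per SD of the covariate gene, ± SE, x axes) of each other gene on Hmgcs1 (left) and on Fasn (right), from edgeR over 27 rats. Filled red points are genes with an adjusted p under 0.05, 9 on the left and 10 on the right, and Srebf1 lies below 0 on the left and above 0 on the right.

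Since the libraries fell into depth blocks, the blocks themselves were compared. Of the 31 genes, 2 were higher and 3 lower in the libraries from 32 than in those up to 31 (16.1%, where 18.5% of all genes were called, 9.21% upward and 9.28% downward), a share near that of all genes. Mvk had a median of 241 normalised counts (188 to 281) in the libraries up to 31 and 283 (234 to 294) in those from 32, a log2 difference of 0.19 ± 0.05 (adjusted p = 0.0097, edgeR). Hmgcs1 had 4605 (3602 to 5025) against 3981 (3460 to 4737), a difference of -0.16 ± 0.05 (adjusted p = 0.015, edgeR). The ranges of the blocks overlapped for both, as for each of the 31 genes. Srebf1 was higher by 0.20 ± 0.07 (adjusted p = 0.029), and Acly and Cyp51 differed by -0.09 ± 0.03 (0.022) and -0.14 ± 0.05 (0.049), in edgeR's fit. Cyp51 was lost without library 3 (-0.12, adjusted p = 0.058, edgeR), and 9 genes were called once the white matter score was in the fit (29.0%, where 21.4% of all genes were). Scd2, Fads1, Msmo1 and Srebf2 were those gained. What else differed between the blocks cannot be told apart from depth.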

How the data were processed

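Reads of polyA RNA from the mPFC of 27 rats, 1 library each, had been trimmed with Trimmomatic, aligned with STAR and counted with HTSeq, per the labels' processing notes. Versions and genome build are not given in the sources used here. The labels and the paper differ on the library kit and the section taken. The authors deposited raw counts per gene, 36865 rows and 4907255 to 12771309 counts per library. Gene IDs were matched to RefSeq symbols (GRCr8) for 28157 rows, and 31 of 31 listed genes were found.

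Slopes came from edgeR 4.0.16 quasi-likelihood tests (R 4.3.3) with TMM factors and filterByExpr, which kept 11292 genes, and p-values were Benjamini-Hochberg adjusted over all of them. Covariates were scaled to an SD of 1, so that a slope is a log2 change per SD. Alternatives were RLE factors, no filter, DESeq2 1.42.0, the depth block as a term, single blocks, left-out libraries and a pseudocount of 0.1. Levels used DESeq2 size factors and log2(normalised count + 1). Cell scores were mean z scores of marker genes. Trf matched several rows and was left out of the white matter list of 12. The principal components, the fits with both scores together and the omission of single libraries were added after the data were seen. Permutation tests (100000, two-sided) used Python 3.11.15 with scipy 1.17.1. On simulated counts for the 11292 genes, with 200 genes changed by 0.5 (log2 per SD), the white matter fit recovered 199 with 11 false calls. That change is larger than the slopes of the lipid genes called with the white matter score, which ran from 0.09 (Cyp51) to 0.14 (Scd). Recovery and false calls with changes of that smaller size were not tested.

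The members, gene lists and pairs were chosen with earlier results of these data known. Genes named were the 31 members, marker genes and, from each other lipid list, up to 3 called genes per direction with the largest slope on the white matter score. Of the marker genes this rule lists, 1 is not reported here. The anxiety scores were not used. The p-values measure the spread between these rats, and intervals from counts cover counting error only.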

Additional observations from a re-analysis of the deposited data

How the results depend on the processing

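Where a count moved, the cause was not tested unless fewer samples or genes were in the fit. Genes following the white matter score (219) numbered 454 with the depth block added, 28 in the libraries from 32, 113 without the 2 farthest rats and 122 with the astrocyte score added, and 150 to 309 when each library was left out. The called lipid genes (4) numbered 0 from 32, 0 without the 2 farthest rats, 0 with the astrocyte score added, 2 with the score of other white matter genes and 1 to 5 over omissions, with 1 without library 3, 5 or 17. Genes following the astrocyte score (189) numbered 306 in DESeq2, 99 up to 31, 0 from 32, 85 without the 2 farthest rats and 67 with the white matter score added, and the lipid genes (4) numbered 0 from 32, 2 with the white matter score added, 3 without the 2 farthest rats (Fads2 lost), 5 with the block added (Srebf1 gained) and 5 in DESeq2 (Scd gained). Genes following Hmgcs1 (3325) numbered 2175 with the block added, 823 up to 31, 0 from 32, 0 with the first 3 principal components added and 2797 to 3635 over omissions, and the lipid genes (9) numbered 4 up to 31, 0 from 32, 0 with the 3 components and 7 to 10 over omissions. Genes following Fasn (3216) numbered 0 from 32, 1051 without the 2 farthest rats, 149 with the 3 components added and 1711 without library 3, and the lipid genes (10) 0, 3, 5 and 8. Between the depth blocks, 9 lipid genes passed with the white matter score added (5 without), and 2412 of all genes (2088 without). Of the 8 pairs (7 by rho and 7 by r), 2 passed by rho and 5 by r in the libraries up to 31, 5 by rho and 3 by r in those from 32, and 5 by rho and 6 by r with the block regressed out.

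The slope of Srebf1 on Hmgcs1 turned to 0.10 and that of Lss on Fasn to -0.0054 with the 3 components added. The rho of Fasn and Acly was -0.0069 without the 2 farthest rats and -0.052 without library 3. With no filter, Scd was lost for the white matter score (adjusted p = 0.055) and Cyp51 between the blocks (0.075), in edgeR. Without the 2 farthest rats, Srebf1 was lost for Hmgcs1 (adjusted p = 0.094). Low read numbers limit Hsd17b7, Elovl6, Ebp and Tm7sf2. No paired analysis was possible because all rats form 1 group.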
